A study of Mus musculus with 12 samples.

Results

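The genes described here are 39 genes of glycolysis and the hypoxia response, measured in cultured mouse fibroblast-like synoviocytes. They were taken from the deposited table by gene symbol and kept if 3 or more of the 12 libraries held a normalized read count of 10 or higher. All 39 symbols were present and all 39 passed, out of 18139 genes that passed among 53341 rows of the table. The 39 symbols sit on 40 rows, since Aldoa has a second row that stayed under that level. Of the 39, 16 are enzymes of glycolysis, 2 are transporters, 3 are regulators of glycolytic flux, 5 belong to the oxygen-sensing system and 13 are other genes known to be induced by hypoxia.

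Glycolysis turns glucose into pyruvate, and when pyruvate is reduced to lactate the cell makes ATP without oxygen. Oxygen is sensed by prolyl hydroxylases, encoded by Egln1, Egln2 and Egln3, which mark the alpha subunits of the hypoxia-inducible factors (HIF), encoded by Hif1a and Epas1, for destruction when oxygen is present. In low oxygen the alpha subunits persist, pair with ARNT and raise the transcription of glucose transporters, glycolytic enzymes and genes such as Adm and Car9. Fibroblast-like synoviocytes form the lining of the joint, a tissue that becomes poor in oxygen in inflammatory arthritis, and TNF is a main inflammatory cytokine there.

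The question of the study is how much of the response of these cells to TNF depends on SOXC, a family of transcription factors (Sox4, Sox11, Sox12). Its 12 poly(A) RNA libraries fall into 4 groups of 3, all of cells taken from the synovium of animals described as SoxC mice and all given an adenovirus. SoxC_KO_TNF cells were given the virus Ade5CMV-Cre, which expresses Cre recombinase from the CMV promoter, and TNF. Control_TNF cells were given Ade5CMV-eGFP, which expresses a fluorescent protein in place of Cre, and TNF. SoxC_KO cells were given Ade5CMV-Cre without TNF, and control cells Ade5CMV-eGFP without TNF. Treated cells received 10 ng/mL of recombinant human TNF for 16 h. The labels used here do not state the strain and age of the animals, nor which part of each Sox gene is deleted. Whether replicates are separate animals or cultures is also not stated, and p-values therefore describe the spread among these 12 libraries, possibly a technical one.

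Normalized totals were 19.6 M to 23.1 M (M, 1e+06 counts) per library, and the 39 genes together took 1.25% to 1.75% of each. Sox4 was at 1020, 1086 and 601 normalized counts in SoxC_KO_TNF libraries and at 1697, 3646 and 1625 in control_TNF libraries. Without TNF it was at 1432, 1433 and 548 in SoxC_KO libraries and at 4238, 4143 and 1857 in control libraries, so transcripts remained in every knockout library. With TNF, Sox11 was at 75.1, 105 and 29.5 in SoxC_KO_TNF and at 194, 248 and 138 in control_TNF libraries, and Sox12 at 129, 159 and 86.5 in SoxC_KO_TNF and at 278, 326 and 237 in control_TNF libraries. Without TNF, Sox11 was at 175, 157 and 26.8 in SoxC_KO and at 269, 272 and 153 in control libraries, and Sox12 at 230, 194 and 259 in SoxC_KO and at 352, 342 and 162 in control libraries, and both overlapped there. The mean of SoxC_KO libraries was thus 33.3% of that of control libraries for Sox4, 51.7% for Sox11 and 79.7% for Sox12, and with TNF the shares were 38.9%, 36.0% and 44.6%. All 12 fibroblast markers of the list used were detected in every library. The 4 libraries numbered 3, which are 1 of each group, stood apart from the other 8. Their summed macrophage markers were at 3440 to 4004 normalized counts, against 1396 to 2071 in the other 8. Lyz2 held much of that sum, at 2172 to 2438 in the 4 and at 677 to 1014 in the 8. Csf1r and Adgre1 were also higher in the 4 without overlap, while Ptprc, Itgam, Cd68 and Cd14 overlapped. Summed neutrophil markers overlapped, at 1405 to 2374 in the 4 and at 476 to 1426 in the 8. Of these, S100a8 was at 226 to 454 in the 4 and at 43.1 to 180 in the 8. Camp overlapped, at 1175 to 1920 in the 4 and at 429 to 1242 in the 8. Summed fibroblast markers were at 209787 to 395376 in the 4, against 405438 to 570363 in the 8. The fibroblast markers did not move as 1 list, since 6 of the 12 were lower in all 4 of these libraries than in the other 8 (Col3a1, Col1a2, Prg4, Pdgfra, Cdh11 and Lum) and the other 6 overlapped, Thy1 being at 11005 to 22495 in the 4 and at 11058 to 13901 in the 8. Liver transcripts stood out in 2 libraries, with summed hepatocyte markers of 4097 in SoxC_KO_TNF replicate 1 and 596 in control_TNF replicate 2, against at most 72.4 in the others. In bulk RNA, fewer cells of a type and less RNA per cell cannot be told apart. Results that rest on these libraries are given with and without them.

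Levels of the 39 genes spanned a wide range, led by enzymes of glycolysis. Per kilobase of exon, over the mean of all 12 libraries, Pkm (pyruvate kinase) was highest at 11418 normalized counts and Ldha (lactate dehydrogenase A, which reduces pyruvate to lactate) followed at 10969. Aldoa (aldolase A) was at 9058, Pgam1 (phosphoglycerate mutase) at 6537, Eno1 (enolase 1) at 5127, Tpi1 (triose phosphate isomerase) at 4748, Gapdh at 4170 and Pgk1 (phosphoglycerate kinase) at 3734. The isoforms best known from nerve tissue were low, with Eno2 at 172 and Aldoc at 39.3 normalized counts per kilobase of exon. Of the enzymes that act first in the pathway, Gpi1 (glucose-6-phosphate isomerase) was at 1573, the hexokinases Hk1 and Hk2 at 528 and 511, and the phosphofructokinases Pfkl, Pfkm and Pfkp at 919, 342 and 119. The glucose transporter Slc2a1 was at 1280 and the lactate exporter Slc16a3 at 1026. Close copies of several of these enzymes exist as pseudogenes in the mouse genome, and the labels do not say how reads shared with them were counted, so the levels of Gapdh, Ldha, Pgam1, Tpi1, Pgk1, Eno1 and Aldoa are uncertain to that extent.

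Within the oxygen-sensing system Hif1a stood at 2221 normalized counts per kilobase of exon and Epas1, which encodes HIF-2 alpha, at 147. The 3 hydroxylase genes were close to each other on this scale, with Egln1 at 651, Egln3 at 642 and Egln2 at 529. Among the regulators, Pdk1 (a kinase that inhibits pyruvate dehydrogenase) was at 165, and Pfkfb3 and Pfkfb4 (enzymes that set the level of fructose 2,6-bisphosphate, an activator of phosphofructokinase) were at 148 and 72.2. Among the other hypoxia-induced genes the highest per kilobase were Adm, which encodes the secreted vasodilator peptide adrenomedullin, at 3280, and the collagen prolyl hydroxylase subunits P4ha2 and P4ha1 at 2910 and 2615. Bnip3 and Bnip3l, which encode receptors for mitophagy, were at 1673 and 677, and Ddit4, an inhibitor of mTORC1 signalling, was at 1421. Higd1a was at 482, Car9 (carbonic anhydrase 9) at 172, Ndrg1 at 130, the histone demethylase gene Kdm3a at 97.2, Mxi1 (an antagonist of MYC) at 89.0, Ankrd37 at 38.6 and Car12 (carbonic anhydrase 12) at 22.2.

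Few of these genes passed a test of a TNF change, and the clearest was Egln3. With 3 libraries per group, a gene that did not pass is not thereby shown to be unchanged. Averaged over both genotypes, Egln3 rose 1.97-fold with TNF. Adm was 1.53-fold higher and passed the test where the replicate number was kept as a block. The other 37 genes passed the test in neither direction, with or without that block. Egln3 encodes a hydroxylase that marks HIF alpha subunits and is itself a HIF target gene, and Adm encodes a secreted peptide hormone.

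Egln3 was at 2196, 2249 and 2265 normalized counts in SoxC_KO_TNF libraries and at 2175, 2218 and 2481 in control_TNF libraries. Without TNF it was at 1079, 1027 and 1354 in SoxC_KO libraries and at 1020, 1123 and 1316 in control libraries. All 6 TNF libraries were above all 6 untreated ones, and the genotypes overlapped. In limma, a linear model with a spread shared across genes, the change averaged over genotypes was 0.98 ± 0.12 on the log2 scale (SE), or 1.97-fold, with an adjusted p of 0.00248. It stayed past the threshold when any 1 of the 12 libraries was left out, with adjusted p values from 0.00112 to 0.0127. Changes then ran from 0.94 to 1.04. Without the 2 libraries that held liver transcripts the adjusted p was 0.0276.

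Within each genotype the size was similar and the test was close to its threshold. In SoxC knockout cells Egln3 differed by 0.97 ± 0.17 (log2, SE), with an adjusted p of 0.0538, or 0.00164 with the replicate block. Of the 12 fits that left out a library, that without SoxC_KO replicate 3 passed (adjusted p = 0.024), and the adjusted p reached 0.252 without SoxC_KO replicate 1 and 0.481 with only the 2 groups compared. In control cells the difference was 0.996 ± 0.17, with an adjusted p of 0.0495, or 0.0013 with the block. The control call held in only 1 of the 12 fits that left out a library, that without SoxC_KO replicate 3, and the adjusted p reached 0.283 without control replicate 1 and 0.293 with only the 2 groups compared. Without the 4 libraries numbered 3, Egln3 differed by 1.08 in knockout cells (adjusted p = 0.0041) and by 1.04 in control cells (adjusted p = 0.00447). Without the 2 libraries that held liver transcripts it passed in neither, with adjusted p values of 0.325 in knockout and 0.267 in control cells.

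The other 2 hydroxylase genes did not pass. Egln1 averaged 2268 ± 299 normalized counts in SoxC_KO_TNF, 2063 ± 333 in control_TNF, 2709 ± 216 in SoxC_KO and 2319 ± 493 in control libraries (SD, n = 3 each). Egln2 averaged 1254 ± 389 in SoxC_KO_TNF, 1653 ± 627 in control_TNF, 1760 ± 1070 in SoxC_KO and 1255 ± 349 in control libraries. Their TNF changes averaged over genotypes were -0.21 and -0.01 on the log2 scale, against 0.98 for Egln3.

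Adm was at 6689, 6660 and 6868 normalized counts in SoxC_KO_TNF libraries and at 5791, 5573 and 6764 in control_TNF libraries. Without TNF it was at 4060, 3625 and 5714 in SoxC_KO libraries and at 3432, 3966 and 4578 in control libraries. The groups with and without TNF did not overlap within either genotype, although SoxC_KO replicate 3 reached the level of the lowest control_TNF libraries. The change averaged over genotypes was 0.61 ± 0.14 (log2, SE), or 1.53-fold, with an adjusted p of 0.0723. With the replicate block the adjusted p was 0.00277, and without the 4 libraries numbered 3 the change was 0.71 with an adjusted p of 0.00248. Without SoxC_KO replicate 3 alone the adjusted p was 0.0135, and over the fits that left out 1 library it reached 0.217. Over all settings run, the highest adjusted p of this averaged change was 0.243. In knockout cells Adm differed by 0.62 ± 0.20 (adjusted p = 0.383, or 0.0342 with the block) and in control cells by 0.60 ± 0.20 (adjusted p = 0.627, or 0.0541 with the block).

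The promoters of these 2 genes are shown because of their TNF changes. That of Egln3 passed in the main fit, and that of Adm passed only in alternatives such as the replicate block. HIF binds a core of 5 letters, ACGTG or GCGTG, within hypoxia response elements. Each runs from 250 bases before to 50 bases after the annotated start in RefSeq on GRCm38.p6, and lies at chr12:54203825-54204124 on the minus strand for Egln3 and at chr7:110627407-110627706 on the plus strand for Adm. Capitals mark the core motif, which in Adm is written as CACGC because GCGTG lies on the opposite strand.
Egln3: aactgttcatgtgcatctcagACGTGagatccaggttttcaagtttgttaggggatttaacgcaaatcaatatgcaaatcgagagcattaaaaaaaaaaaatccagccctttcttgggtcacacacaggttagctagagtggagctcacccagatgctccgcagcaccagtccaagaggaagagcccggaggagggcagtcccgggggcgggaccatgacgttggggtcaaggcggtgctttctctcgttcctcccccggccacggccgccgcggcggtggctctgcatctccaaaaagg
Adm: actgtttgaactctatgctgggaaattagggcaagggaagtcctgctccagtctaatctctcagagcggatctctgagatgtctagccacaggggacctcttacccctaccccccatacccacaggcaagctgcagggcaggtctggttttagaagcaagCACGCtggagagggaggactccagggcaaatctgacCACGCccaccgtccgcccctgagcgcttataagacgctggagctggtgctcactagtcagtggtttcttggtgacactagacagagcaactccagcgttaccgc

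Egln3 holds ACGTG once, 229 bases before its start, and Adm holds CACGC at 90 and at 54 bases before its start. RefSeq windows were found for 36 of the 39 genes, 54 windows in all, since some genes have several starts. Bnip3l, Ndrg1 and Epas1 are named only. Searched on both strands, ACGTG was in 53.7% of these windows and in 19.6% of the 32851 windows of all genes. GCGTG was also in 53.7% of the windows, against 32.4% of all. Either motif was in 77.8% of the windows, against 43.8% of all, and in at least 1 window of 32 of the 36 genes. AACAAAG, a motif bound by SOX factors, was in 0% of the windows and in 5.85% of all. The NF-kB consensus was in 1.85% of the windows, that of Car9, against 4.51% of all. The genes were listed as hypoxia targets, so the share with a HIF core is a description of the list, and a match is neither a bound site nor a cause of any change above.

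**Figure D1:**
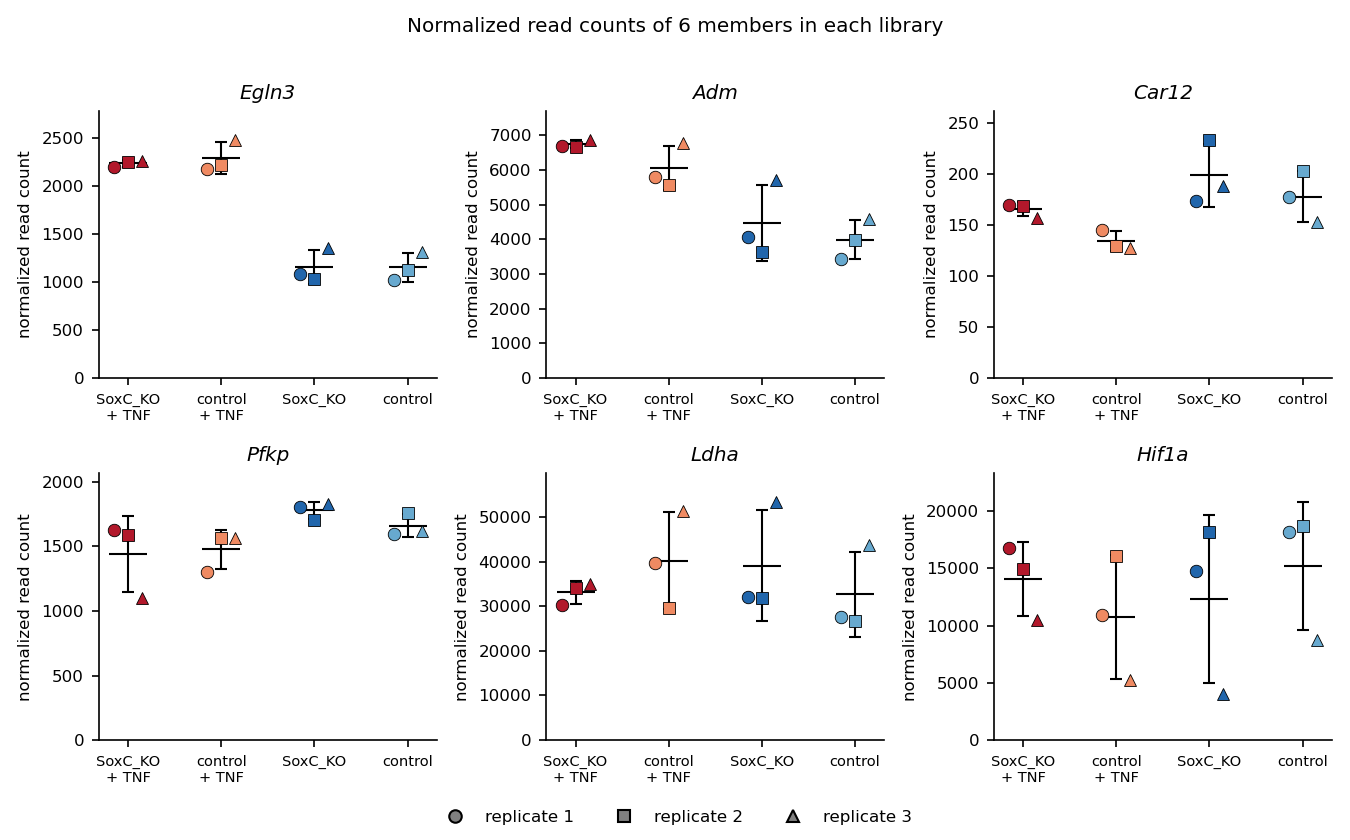
Normalized read counts of 6 of the genes on linear axes that start at 0, with 1 point per library (circle, square and triangle for replicates 1, 2 and 3) and bars for the mean ± SD of the 3 libraries of a group. Egln3 lies at 2175 to 2481 in the 6 TNF libraries and at 1020 to 1354 in the 6 untreated ones, while Hif1a's spread follows the libraries numbered 3, at 4037 to 10526.

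Against all genes, the count of 1 member that rose with TNF averaged over genotypes stands beside 0.877% of the 18139 genes called higher, and none of the 39 was called lower, against 0.292% of all. With the block 2 of 39 were called higher, against 3.01% of all, and none lower, against 2.18%. Without the 4 libraries numbered 3 the same 2 were called higher, against 2.29% of all, and none lower, against 1.31%. In knockout cells none of 39 was called in limma, against 0.243% of all called higher and 0.0496% lower, with 6 of 39 at an unadjusted p under 0.05, against 7.38% of all. At that unadjusted p the block gave 15 of 39, against 21% of all. With the block the knockout count was 2, Egln3 and Adm, against 1.78% of all called higher, and none lower, against 1% of all. Without the 4 libraries numbered 3 it was also those 2, against 0.866% called higher, and none lower, against 0.16%. In control cells 1 of 39 was called higher, against 0.287% of all, and none lower, against 0.0331%. With the block the control count was again 1 higher, against 1.18% of all, and none lower, against 0.529%, and without the 4 libraries numbered 3 it was 1 higher, against 1.07%, and none lower, against 0.402%.

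None of the 16 glycolytic enzymes passed a TNF test in limma, with or without the block. With the replicate block, the 95% intervals of all 16 changes averaged over genotypes lay between -0.64 and 0.46 on the log2 scale, and 2 of the 16 had an unadjusted p under 0.05, against 15.7% of all genes. Without the block the intervals lay between -0.78 and 1.03, and 0 of the 16 had an unadjusted p under 0.05, against 8.17% of all genes. In SoxC knockout cells 15 of the 16 had a negative change with a median of -0.33 (log2), against a median of -0.01 over all genes. In control cells 8 of the 16 were negative and the median was 0.01, against -0.02 over all genes. Without the 4 libraries numbered 3, the knockout median was -0.09 with 13 of 16 negative. The 2 contrasts have no library in common, and the test of their difference is given with the interaction below.

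Pfkp, a phosphofructokinase, was at 1630, 1592 and 1103 normalized counts in SoxC_KO_TNF libraries, at 1304, 1565 and 1564 in control_TNF libraries, at 1806, 1704 and 1827 in SoxC_KO libraries and at 1599, 1760 and 1620 in control libraries. TNF libraries were below untreated ones in both genotypes without overlap, but the averaged change of -0.25 (log2) did not pass. Pfkl, the liver-type phosphofructokinase, was at 5275, 5721 and 4128 in SoxC_KO_TNF libraries and at 6747, 5667 and 10438 in SoxC_KO libraries. Its TNF change in knockout cells was -0.56 ± 0.23 (log2, SE) with an adjusted p of 0.582, and the 10438 came from the library numbered 3. Over all settings run that change was between -0.75 and -0.17. Ldha was at 30254, 34182 and 35031 in SoxC_KO_TNF, 39836, 29558 and 51478 in control_TNF, 32011, 31872 and 53452 in SoxC_KO and 27540, 26741 and 43727 in control libraries. In each group its highest library was replicate 3, and the groups overlapped.

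Aldoc, aldolase C, was at 112, 103 and 111 normalized counts in SoxC_KO_TNF, 92.5, 104 and 154 in control_TNF, 131, 112 and 209 in SoxC_KO and 113, 120 and 177 in control libraries. Its averaged TNF change of -0.33 ± 0.21 (log2, SE) had an adjusted p of 0.902. Pfkfb4 was at 256, 267 and 324 in SoxC_KO_TNF, 275, 350 and 366 in control_TNF, 339, 320 and 543 in SoxC_KO and 356, 361 and 466 in control libraries. Its averaged change of -0.36 ± 0.17 had an adjusted p of 0.656, and its groups overlapped in both genotypes. Pfkfb3 was at 1390, 1106 and 719 in SoxC_KO_TNF, 799, 1458 and 631 in control_TNF, 1326, 1387 and 686 in SoxC_KO and 1512, 1574 and 856 in control libraries. In control cells its change with TNF was -0.49 ± 0.40 with an adjusted p of 0.998. Control_TNF replicates 1 and 3 were low and replicate 2 was within the range of the untreated cells.

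**Figure D2:**
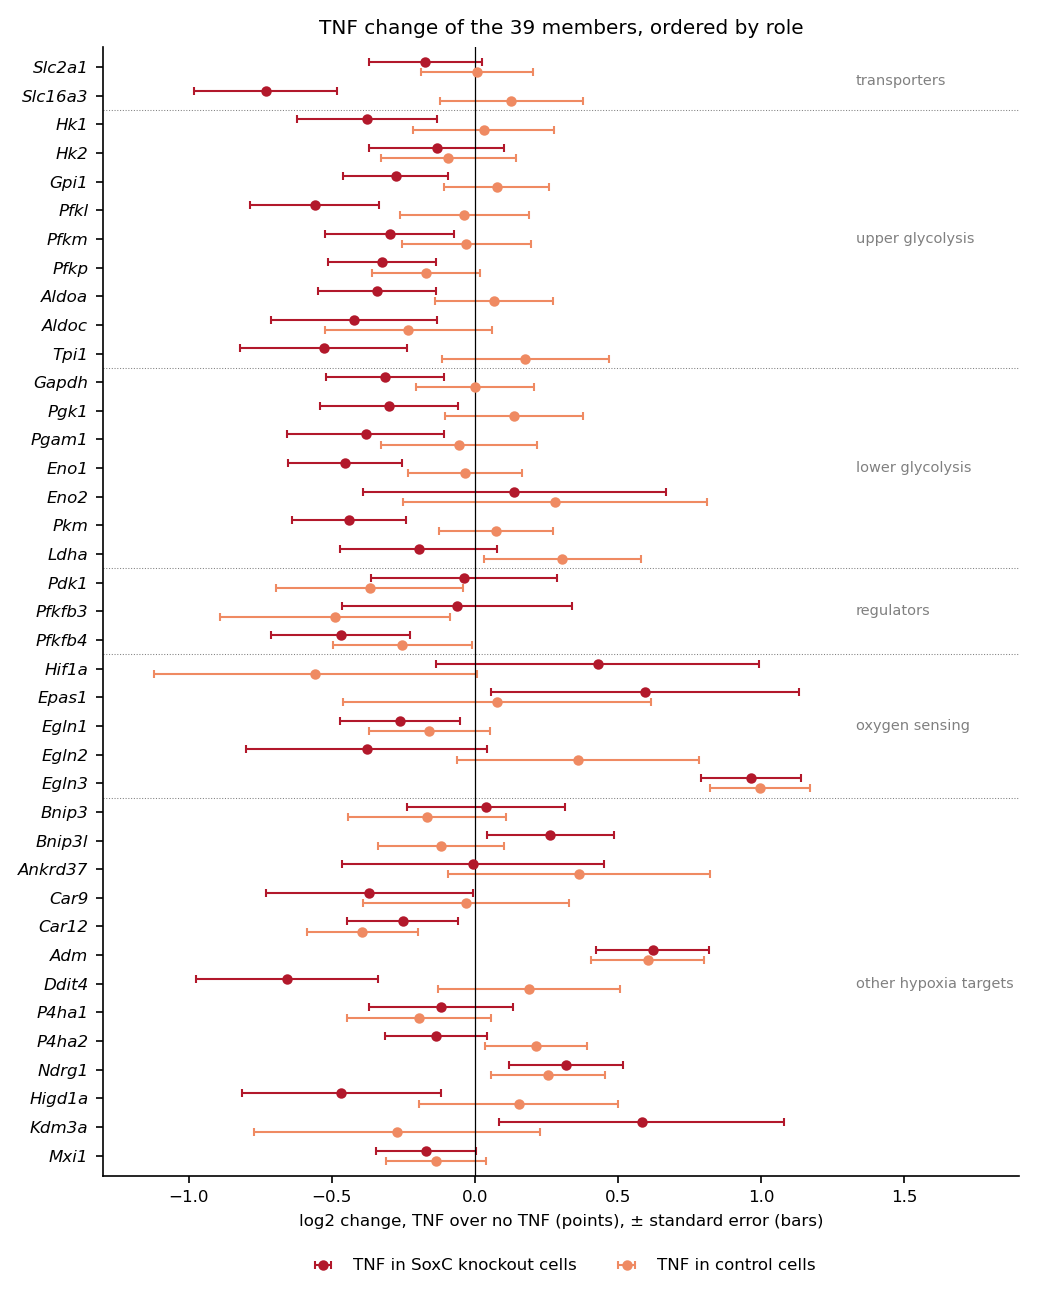
Log2 change with TNF for each of the 39 genes (points) with its standard error (bars), ordered by role from transporters at the top to other hypoxia targets at the bottom, in SoxC knockout cells (red) and control cells (orange). Egln3 (0.97 in knockout and 0.996 in control cells) and Adm (0.62 and 0.60) lie to the right in both. Of the 16 glycolytic enzymes, 15 lie left of 0 in knockout cells and 8 in control cells. Without the 4 libraries numbered 3 these counts were 13 and 7. No enzyme passed the test in either genotype or in the interaction.

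Neither HIF alpha gene passed the TNF test. Hif1a was at 16776, 14968 and 10526 normalized counts in SoxC_KO_TNF, 10914, 16062 and 5291 in control_TNF, 14756, 18186 and 4037 in SoxC_KO and 18207, 18667 and 8722 in control libraries. Its TNF change in control cells was -0.56 ± 0.56 (log2, SE), with an adjusted p of 0.998. Epas1 was at 1552, 1108 and 505 in SoxC_KO_TNF, 716, 1278 and 426 in control_TNF, 782, 868 and 371 in SoxC_KO and 882, 962 and 391 in control libraries. Its change in knockout cells was 0.59 ± 0.54 with an adjusted p of 0.826, and averaged over genotypes it was 0.34 ± 0.38 with an adjusted p of 1.0. The averaged Epas1 change was -0.04 without the 2 libraries that held liver transcripts, and its 2 highest values came from SoxC_KO_TNF replicate 1 and control_TNF replicate 2, the libraries with those transcripts. For both genes the lowest library of every group was the one numbered 3. Hif1a overlaps an annotated gene on each strand, and the labels do not say whether counting used strand, so reads may be split between them.

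Among the other hypoxia targets, the 2 carbonic anhydrase genes and Ddit4 show the range. Car12 was at 170, 169 and 157 normalized counts in SoxC_KO_TNF, 145, 130 and 128 in control_TNF, 174, 234 and 189 in SoxC_KO and 177, 203 and 153 in control libraries. TNF libraries were below untreated ones without overlap in both genotypes, and the averaged change of -0.32 ± 0.14 (log2, SE) did not pass, with an adjusted p of 0.544. Car9 was at 322, 319 and 393 in SoxC_KO_TNF, 281, 301 and 573 in control_TNF, 339, 358 and 716 in SoxC_KO and 301, 322 and 533 in control libraries, highest in replicate 3 of each group. Ddit4 was at 1191, 2117 and 2733 in SoxC_KO_TNF and at 2811, 2348 and 4105 in SoxC_KO libraries, which overlapped. Its TNF change in knockout cells was -0.66 ± 0.32 with an adjusted p of 0.707. Ankrd37 was at 40.0, 40.4 and 90.3 in SoxC_KO_TNF, 80.7, 40.5 and 89.4 in control_TNF, 42.1, 46.1 and 76.7 in SoxC_KO and 35.5, 43.8 and 87.3 in control libraries. In control cells its change was 0.36 ± 0.46 with an adjusted p of 0.998, and reads of Ufsp2, which overlaps it on the opposite strand at a mean of 1284 normalized counts, may enter its count.

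Ndrg1, a gene induced by hypoxia and by differentiation, was at 963, 991 and 985 normalized counts in SoxC_KO_TNF, 762, 883 and 1042 in control_TNF, 703, 718 and 960 in SoxC_KO and 638, 759 and 852 in control libraries. It did not overlap between TNF and untreated libraries in knockout cells, by a margin of 963 against 960, and did overlap in control cells. P4ha2 was at 19463, 20051 and 13646 in SoxC_KO_TNF and at 19154, 17113 and 21629 in SoxC_KO libraries, which overlapped. It was at 20050, 18929 and 18334 in control_TNF and at 16653, 17536 and 15342 in control libraries, which did not. In knockout cells 3 of 39 genes were higher with TNF without overlap, against 6.43% of all genes, and 7 were lower, against 6.4% of all. The 7 were Pfkm, Pfkp, Aldoc, Tpi1, Eno1, Pkm and Car12. In control cells 3 were higher, against 4.6%, and 2 were lower, against 4.11%. In both genotypes at once 2 were higher, against 1.79% of all, and 2 were lower, against 1.28%.

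A wider list of 73 genes of the same pathways, taken from the enzymes and HIF targets outside the 39, had 68 tested and was chosen with earlier results of these data known. In the averaged TNF contrast none of the 68 passed higher, against 0.877% of all genes, and 1 passed lower, against 0.292%, with a median change of -0.05 (log2), against -0.001 over all genes. With the replicate block 5 passed higher (Bpgm, Vegfa, Angptl4, Insig2 and Gbe1), against 3.01% of all genes, and 3 lower (Pgam2, Slc16a1 and Ppp1r3c), against 2.18%. The gene that passed in both was Ppp1r3c, which targets protein phosphatase 1 to glycogen. It was at 72.5, 89.0 and 71.0 normalized counts in SoxC_KO_TNF, 49.7, 70.6 and 94.2 in control_TNF, 131, 150 and 131 in SoxC_KO and 160, 183 and 156 in control libraries. No TNF library reached the lowest untreated one, and Ppp1r3c fell by 1.04 ± 0.17 on the log2 scale (SE), with an adjusted p of 0.0123.

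The HIF target best known for angiogenesis, Vegfa, was at 6015, 6408 and 5396 normalized counts in SoxC_KO_TNF, 6684, 6195 and 5855 in control_TNF, 5205, 4887 and 4112 in SoxC_KO and 4714, 4715 and 4365 in control libraries. Its TNF libraries were all above its untreated ones. The averaged change was 0.39 ± 0.11 (log2, SE) with an adjusted p of 0.183, or 0.0166 with the block. Gbe1, the glycogen branching enzyme, was at 1490, 1317 and 1320 in SoxC_KO_TNF, 1044, 1366 and 1035 in control_TNF, 848, 1013 and 447 in SoxC_KO and 930, 1038 and 821 in control libraries, where control_TNF replicate 3 was just under control replicate 2. Its averaged change was 0.61 ± 0.20, with an adjusted p of 0.269, or 0.0266 with the block. Slc16a1, a monocarboxylate transporter like the member Slc16a3, had an averaged change of -0.35 ± 0.14 with an adjusted p of 0.455, or 0.0464 with the block. Pgam2, the muscle form of phosphoglycerate mutase, had one of -0.86 ± 0.29 with an adjusted p of 0.317, or 0.00693 with the block. Summed skeletal muscle markers were at 466 to 1394 normalized counts in SoxC_KO_TNF, 413 to 582 in control_TNF, 684 to 1337 in SoxC_KO and 787 to 942 in control libraries, and their part in Pgam2's value was not tested.

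No SoxC knockout change of the 39 genes passed in limma, with or without TNF. Sox4 itself did not pass either, although its SoxC_KO mean without TNF was 33.3% of that of control libraries. The test missed a loss of that size, so a lack of calls here does not show that a gene was unchanged. Of all 18139 genes, 0% were called in both contrasts and in their average, so the members' count is the background, and none of the 39 had an unadjusted p under 0.05 in any of the 3, against 1.28% of all with TNF, 0.97% without TNF and 0.772% averaged. With the replicate block 0.00551% of all genes were called lower averaged over TNF, and without the 4 libraries numbered 3 0.00551% were called higher in each of the 3, none of them a member. Averaged over TNF, the 16 glycolytic enzymes had changes from -0.05 to 0.05 on the log2 scale with a median of 0.003. Their 95% intervals ran from -0.77 to 0.87, both ends being those of Eno2, the most variable of them. Egln3 differed by -0.02 ± 0.12 (log2, SE), with an interval from -0.29 to 0.25, and Adm by 0.15 ± 0.14, with an interval from -0.15 to 0.46.

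With TNF, all 16 glycolytic enzymes had a negative knockout change with a median of -0.19 (log2), against -0.004 over all genes. Without TNF, all 16 had a positive one with a median of 0.18, against -0.01 over all genes. Without the 4 libraries numbered 3, 8 of 16 were positive with TNF with a median of 0.002, and 14 of 16 were positive without TNF with a median of 0.10. SoxC_KO replicate 3 alone carried much of the value without TNF: leaving it out gave 12 of 16 positive with a median of 0.03. No enzyme passed in any of these fits.

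Slc16a3, which exports lactate, was at 3274, 5486 and 3546 normalized counts in SoxC_KO_TNF libraries and at 7271, 5241 and 4815 in control_TNF libraries, which overlapped. Without TNF it was at 6562, 5302 and 8379 in SoxC_KO libraries and at 5375, 4859 and 5394 in control libraries, which also overlapped. With TNF its knockout change was -0.51 ± 0.25 (log2, SE), with an adjusted p of 0.997, and averaged over TNF it was -0.08 ± 0.18. In knockout cells its TNF change was -0.73 ± 0.25, with an adjusted p of 0.431, and -0.48 without the 4 libraries numbered 3.

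Hif1a's knockout change was 0.50 ± 0.56 with TNF and -0.48 ± 0.56 without (log2, SE), and Kdm3a's was 0.37 ± 0.50 with TNF and -0.48 ± 0.50 without. Kdm3a was at 1059, 978 and 685 normalized counts in SoxC_KO_TNF, 691, 1021 and 461 in control_TNF, 922, 917 and 249 in SoxC_KO and 970, 1109 and 535 in control libraries. Without SoxC_KO replicate 3 the untreated changes turned, to 0.19 for Hif1a and 0.14 for Kdm3a. Egln2, at 846, 1293 and 1621 in SoxC_KO_TNF, 1594, 1058 and 2307 in control_TNF, 1206, 1081 and 2993 in SoxC_KO and 1106, 1005 and 1653 in control libraries, had the mirror pattern. Its knockout change was -0.38 ± 0.42 with TNF and 0.36 ± 0.42 without, and without SoxC_KO replicate 3 the untreated value was -0.10. Pfkfb3's untreated change was -0.23 ± 0.40, and 0.10 without that library.

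Higd1a, a mitochondrial protein gene induced by hypoxia, was at 940, 1105 and 1806 normalized counts in SoxC_KO_TNF, 1659, 1013 and 1762 in control_TNF, 1707, 1210 and 2401 in SoxC_KO and 1091, 1100 and 1796 in control libraries. Its untreated knockout change was 0.40 ± 0.35 (log2, SE), and that of Ddit4 was 0.42 ± 0.32. Ddit4 was at 2846, 2049 and 2905 in control_TNF and at 2155, 1928 and 2746 in control libraries, and with TNF its knockout change was -0.43 ± 0.32. Epas1's knockout change with TNF was 0.39 ± 0.54. Averaged over TNF, the largest positive changes were those of Car12 (0.23 ± 0.14), Egln1 (0.19 ± 0.15) and Adm, and the largest negative ones were those of Ankrd37 (-0.14 ± 0.32), Pfkfb4 (-0.11 ± 0.17) and Slc16a3. In the main fit all adjusted p values in the 3 knockout contrasts were at least 0.997 for the 39 genes. With the replicate block the smallest were 0.618 with TNF and 0.653 without TNF. With TNF, Car12 was the only 1 of the 39 whose knockout libraries did not overlap the controls, higher in knockout cells, against 2.82% of all genes, and none was lower, against 2.34%. Without TNF none was separated in either direction, against 2.39% of all genes higher and 1.98% lower.

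**Figure D3:**
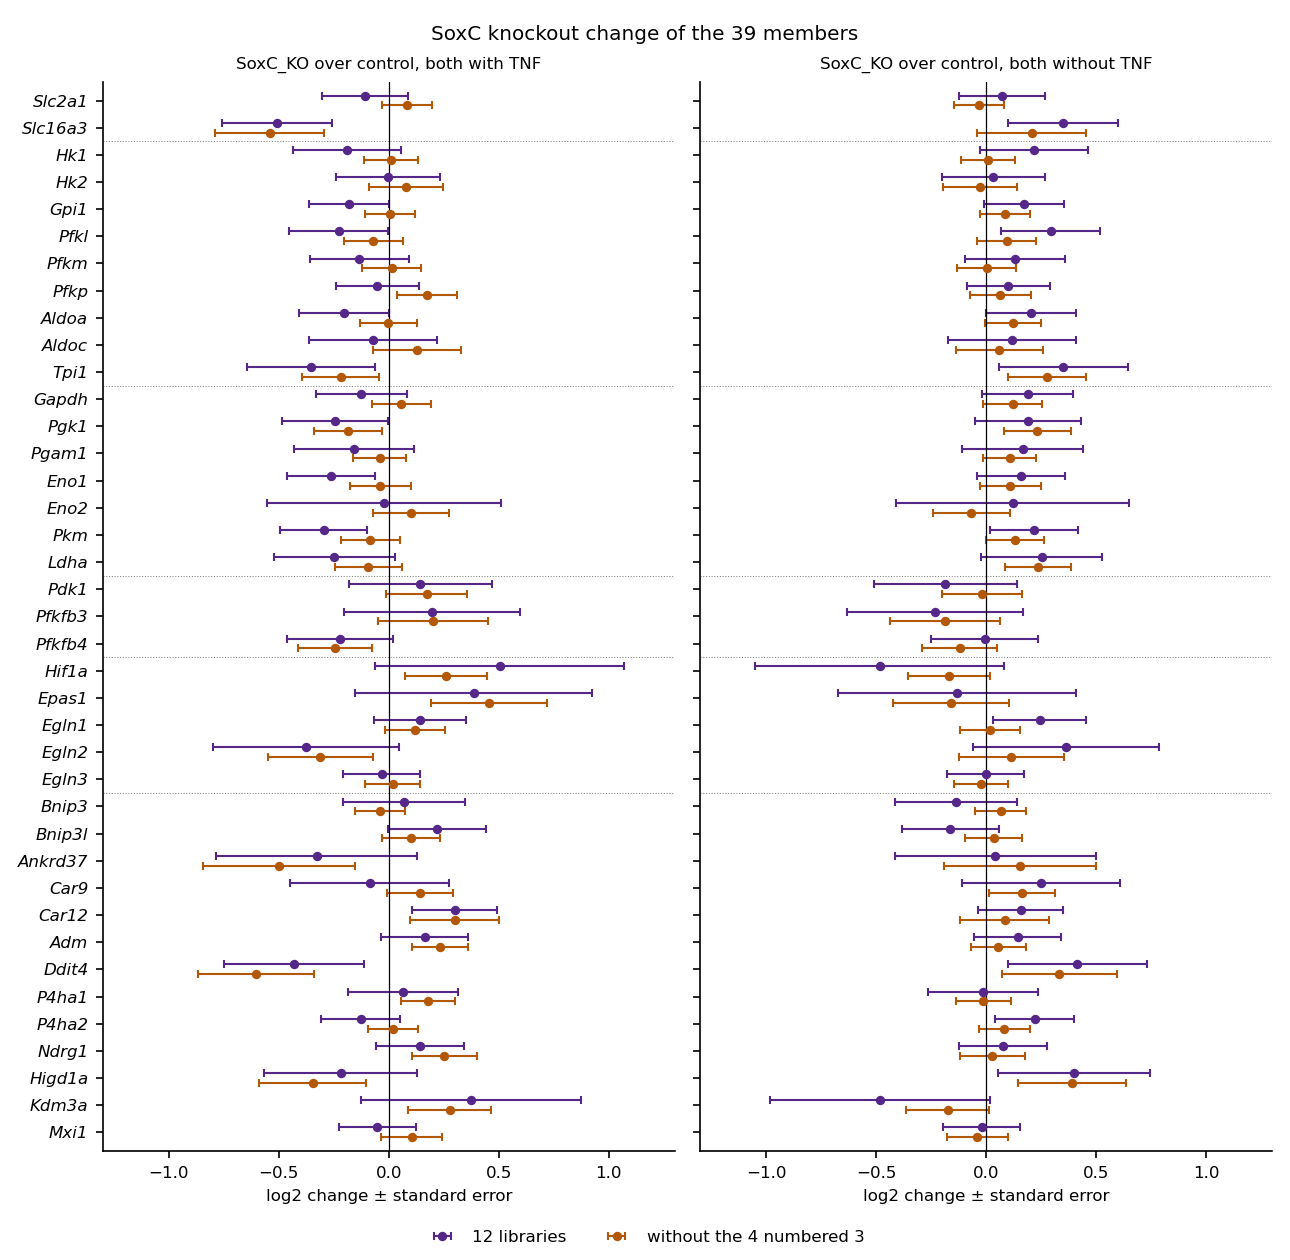
Log2 change with SoxC knockout for each of the 39 genes (points) with its standard error (bars), with TNF on the left and without TNF on the right, from all 12 libraries (purple) and without the 4 libraries numbered 3 (brown). The 16 glycolytic enzymes have a median of -0.19 with TNF and 0.18 without over all libraries, and 0.002 and 0.10 without those 4.

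The interaction asks whether the TNF change differs between knockout and control cells. None of the 39 genes passed in limma, 0% of all genes did, and 1 of the 39, Slc16a3, had an unadjusted p under 0.05, against 1.51% of all. With the replicate block none passed and 8 of the 39 had an unadjusted p under 0.05, against 17.2% of all. Egln3's TNF change differed between genotypes by -0.03 ± 0.25 (log2, SE), with a 95% interval from -0.57 to 0.51, and Adm's by 0.02 ± 0.28, with an interval from -0.60 to 0.63. Both intervals hold 0 and differences of either sign. The largest negative interactions were Slc16a3 at -0.86 ± 0.35 (adjusted p = 0.884), Ddit4 at -0.85 ± 0.45 and Egln2 at -0.74 ± 0.60. The largest positive ones were Hif1a at 0.99 ± 0.80, Kdm3a at 0.86 ± 0.71 and Epas1 at 0.52 ± 0.76. Several of these rested largely on SoxC_KO replicate 3. Without that library the interaction was 0.31 for Hif1a, 0.23 for Kdm3a, -0.28 for Egln2 and -0.69 for Slc16a3. All 16 glycolytic enzymes had a negative interaction with a median of -0.38, against -0.001 over all genes, and without the 4 libraries numbered 3 the median was -0.10 with 10 of 16 negative.

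Libraries of 1 group could differ widely. For Hif1a the highest library of a group was 1.59 times its lowest in SoxC_KO_TNF, 3.04 times in control_TNF, 4.5 times in SoxC_KO and 2.14 times in control libraries. The first principal component of the 39 genes held 67.9% of their variance. The 4 libraries numbered 3 lay at 0.97 to 3.96 on it, control_TNF replicate 1 at 0.44, and the other 7 from -1.91 to -0.74. Eno2 was 2.36 times as high in the mean of the 4 libraries numbered 3 as in the mean of the other 8, Egln2 1.87 times, Car9 1.74 times and Higd1a 1.58 times, and these 4 did not overlap. Epas1 was at 0.415 of the mean of the other 8, Hif1a at 0.445, Kdm3a at 0.503, Bnip3 at 0.689 and P4ha1 at 0.706, and these 5 did not overlap either. Those 4 and 5 of 39 compare with 13.8% of all genes that were higher without overlap and 13.7% that were lower.

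Eno2 was at 702, 570 and 1200 normalized counts in SoxC_KO_TNF, 638, 545 and 1447 in control_TNF, 537, 441 and 1524 in SoxC_KO and 521, 498 and 1082 in control libraries, with replicate 3 highest in each group. Of the 16 glycolytic enzymes, 12 had a higher mean log2 level in the libraries numbered 3 and 4 a lower one. The difference ran with transcript length. Across the 39 genes its Spearman correlation with the length of the longest annotated transcript was -0.70. Across 18112 genes, all measured in the same 12 libraries, it was -0.49. With the mean GC content of the transcripts it was 0.41 across the 39 and 0.45 across all. Hif1a and Epas1, with longest transcripts of 4724 and 5516 bases, were among the lowest, and Ldha, Tpi1 and Pgam1, with 1815, 1607 and 1775 bases, were higher in the libraries numbered 3. The part of transcript length, GC content, macrophage markers, neutrophil markers and fibroblast markers in these differences was not tested.

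**Figure D4:**
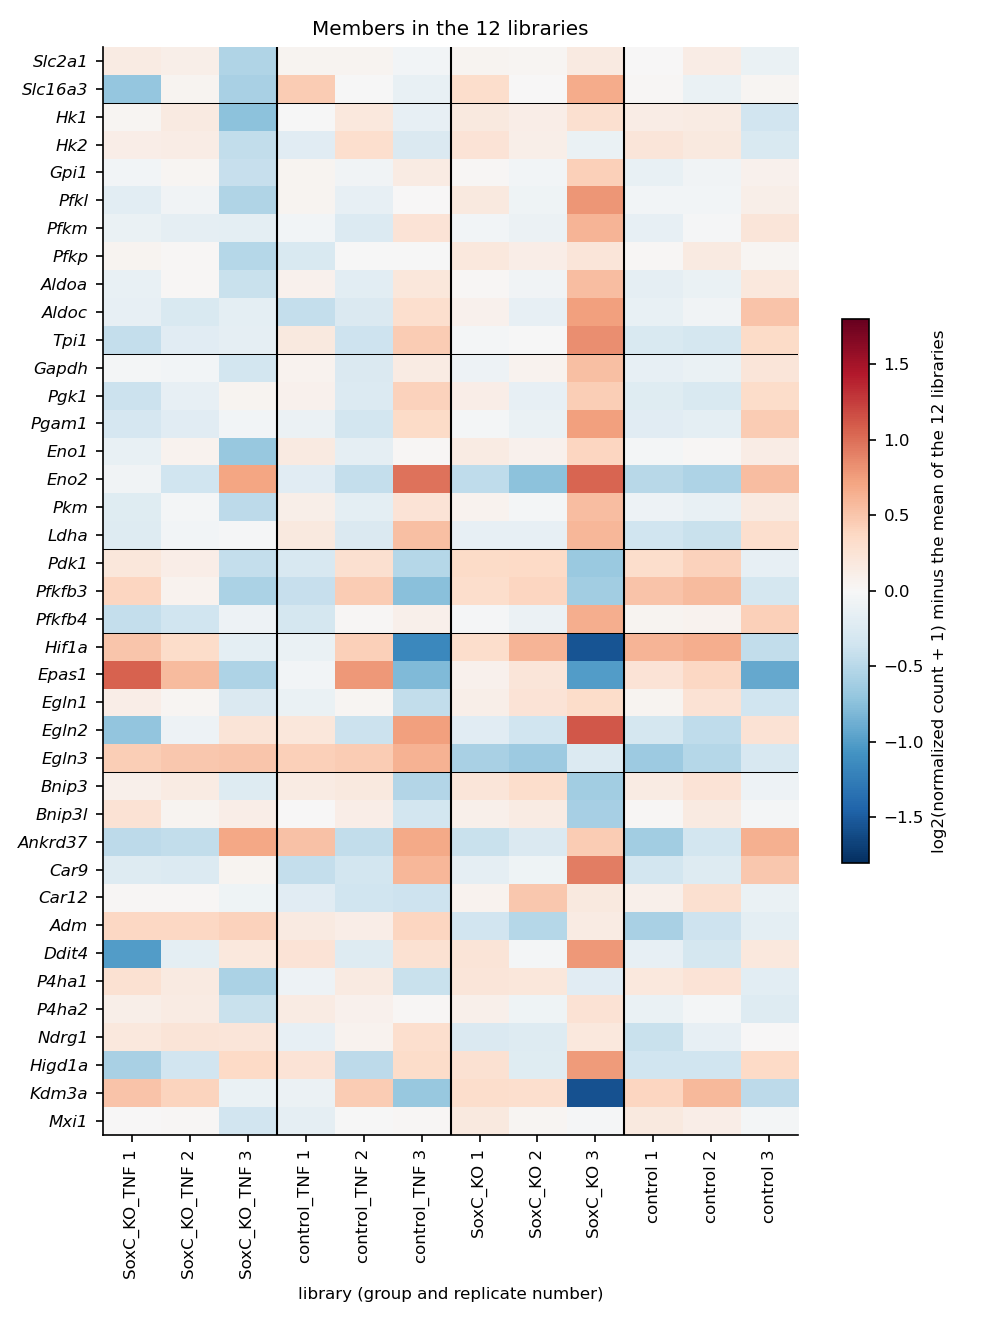
Each of the 39 genes (rows, ordered by role) in each of the 12 libraries (columns), coloured by log2(normalized count + 1) minus the mean of the 12 libraries, red for higher and blue for lower. Egln3 is red in all 6 TNF libraries and blue in all 6 untreated ones, while Eno2, Egln2, Hif1a, Epas1 and Kdm3a follow the libraries numbered 3, with the lowest value of -1.57 for Kdm3a in SoxC_KO replicate 3.

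**Figure D5:**
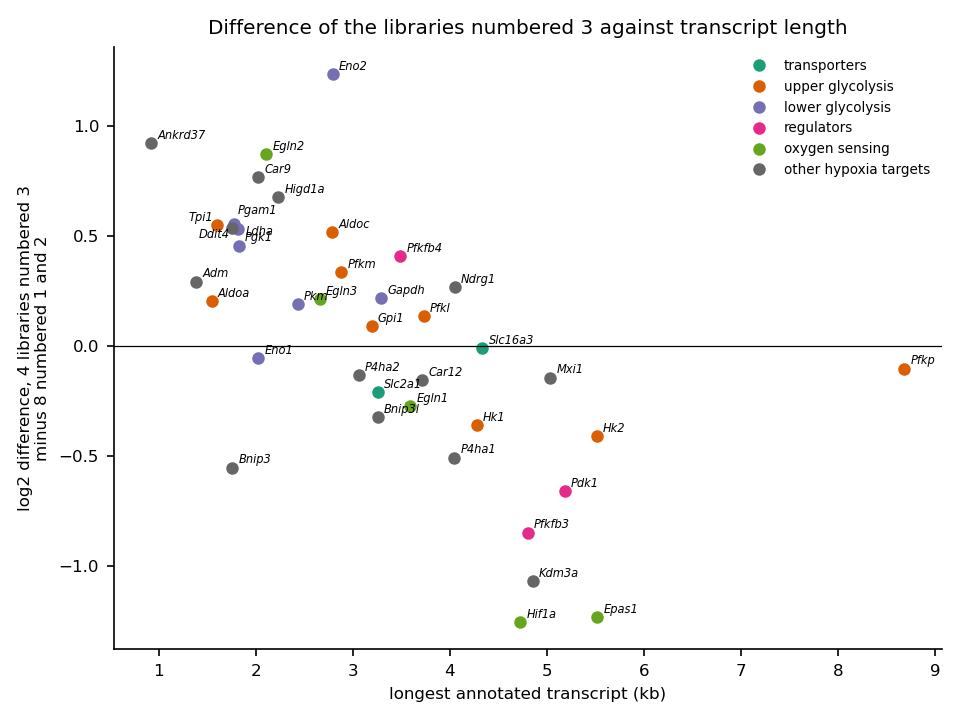
Mean log2 level in the 4 libraries numbered 3 minus that in the 8 numbered 1 and 2 (vertical axis) against the length of the longest annotated transcript in kilobases (horizontal axis), 1 point per gene, coloured by role. The points fall from upper left to lower right, with a Spearman correlation of -0.70 across the 39 genes.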

How the data were processed

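The deposited table holds 1 log2 value per gene and library, which the authors normalized per the file headers. DESeq and build mm10 are named in the submitters' processing notes, while the sources used here do not give the aligner, gene annotation or use of strand. No pseudocount is in the deposited log2 values, and values at or under 1 are listed as 0, so 2 was raised to each value, with 0 left at 0, to give normalized counts, since the chosen test assumed values on a linear scale. The commonest low value of a library put its depth at a rough 8.14 M to 13.7 M read pairs (M, 1e+06). Whole reads were not recovered, and count models were not used. Low genes are least precise in the shallower libraries.

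Genes that held a normalized count of 10 or more in 3 or more libraries were fitted as log2(normalized count + 1), which understates changes of low genes. The fit was limma 3.58.1 in R 4.3.3 with 1 mean per group over all 12 libraries, an intensity trend, and Benjamini-Hochberg adjustment over 18139 genes at a threshold of 0.05. The tests are two-sided. The 4 contrasts between pairs of groups, the TNF and knockout averages and the interaction were tested. The script was tested on simulated data. Figures used Python 3.11.15 and matplotlib 3.10.9.

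The members and lists were chosen with earlier results of these data known. Every member is named with its level, and full statistics are given for members with adjusted p under 0.05 with or without the replicate block and for the 3 largest changes per direction and contrast. Other members with values per library (Ldha, Car9, Pfkp, Ndrg1, P4ha2 and Eno2), and Vegfa and Gbe1 of the wider list, were chosen after their values were seen.

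Replicate numbers come from the sample titles. After group means were removed, same-numbered libraries correlated at 0.103, 0.550 and 0.715 across control_TNF and control, at 0.340, 0.148 and 0.501 across SoxC_KO_TNF and SoxC_KO, and at 0.457, 0.515 and 0.707 across SoxC_KO and control. All these are over 0.1, the cutoff for reading the numbers as pairs. Across SoxC_KO_TNF and control_TNF they were 0.0537, 0.189 and 0.526, of which 0.0537 is under that cutoff. The main fit therefore used no pairing. The replicate block was run as an alternative on every contrast, that of SoxC_KO_TNF and control_TNF included. The libraries numbered 3 stand apart in every group, and their part in these correlations was not tested.

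Levels per kilobase used exons of GENCODE M21, and promoters came from RefSeq on GRCm38.p6. Alternatives were a pseudocount of 5, no filter, scaling to equal totals, recomputed median of ratios, no trend, the replicate block, fits on only the 2 groups compared, and fits without single libraries, the 4 numbered 3 or the 2 with liver transcripts.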

Additional observations from a re-analysis of the deposited data

How the results depend on the processing

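In knockout cells the TNF count was 0 members, and it was 1 with equal totals, 2 with the replicate block and 2 without the 4 libraries numbered 3, with 0 to 1 over the fits that left out 1 library. In control cells it was 1 (Egln3) and 0 with no filter, with the recomputed median of ratios, with no intensity trend, without the 2 libraries that hold liver transcripts and with only the 2 groups compared. Leaving out 1 library at a time gave 0 to 1. Averaged over genotypes it was 1, and it was 2 with equal totals, with the replicate block and without the 4 libraries numbered 3, with 1 to 2 when 1 library was left out. The replicate block changed no other call. The knockout and interaction counts were 0 in every setting run. Reversed values were -0.041 for the averaged TNF change of Epas1 without the 2 libraries with liver transcripts and -0.0034 for its knockout change with TNF without control_TNF replicate 3 (up to 0.84 when another library was left out). Without SoxC_KO replicate 3 the untreated knockout changes were 0.10 for Pfkfb3, 0.19 for Hif1a, -0.10 for Egln2 and 0.14 for Kdm3a. Their opposite extremes, when another library was left out, were -0.51 for Pfkfb3, -0.90 for Hif1a, 0.63 for Egln2 and -0.80 for Kdm3a. The averaged knockout change of Slc16a3 was 0.0093 without control_TNF replicate 1 and 0.0010 without SoxC_KO replicate 2, with a lowest value of -0.19, and that of Ankrd37 was 0.044 without control replicate 3, with a lowest value of -0.33. None of these reversed changes had passed the test. The causes were not tested. With 3 libraries per group, small changes could not be told from the spread. In the knockout contrasts of the main fit, the difference in Sox4 did not pass either.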
